A study of Mus musculus with 4 samples.

Results

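The genes that carry the insulin signal from its receptor to glucose uptake were followed in the white adipose tissue of mice fed a high fat (HFD) or low fat (LFD) diet. The list held 41 genes in 5 roles: the receptor and its adaptors, the PI3K and Akt kinases, the targets of Akt with the mTOR complexes, the traffic of transporter vesicles, and negative regulators. Members were found by name: every probe of the array other than controls whose gene name in the scanner files stood on the list was taken. This gave 97 of the array's 41174 probes, for 40 of its 27376 named genes, and 1 listed gene was not analysed here. A probe was tested if both arrays of 1 diet or the other read it well above background, which held for 80 of the 97 probes and 39 of the 40 genes. Foxo3, a transcription factor that Akt keeps out of the nucleus, was the gene left out, because neither of its 2 probes stood well above background on any array.

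The mice were females of the inbred strain C57BL/6, with no genetic change named. From 8 weeks of age they ate either LFD, the standard feed CE2, or HFD, the feed High fat diet 32, for 18 weeks, and the series describes HFD as a model of diet-induced obesity. Each sample was adipose tissue mixed from 3 mice, with no fat depot named, and 2 samples per diet were each hybridised to a 1-colour array that received 500 ng of total RNA for labelling. The sources used here do not say whether the 2 samples of a diet came from separate groups of mice, so each p-value covers the spread of these 4 samples alone, and that spread may be technical. Of the arrays, HFD replicate 2 stood apart in its background: 68 of the 97 listed probes were well above it there, against 78 to 80 on the others. In whole tissue, fewer cells of a type and less RNA per cell cannot be told apart.

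Insulin binds a receptor tyrosine kinase, which phosphorylates insulin receptor substrates. These recruit phosphoinositide 3-kinase (PI3K), a pair of a catalytic and a regulatory subunit, whose lipid product brings the kinases Pdpk1 and Akt to the membrane. In fat and muscle Akt switches off the Rab inhibitor Tbc1d4, which lets vesicles that carry the glucose transporter Slc2a4 fuse with the cell surface, and in fat it also promotes lipid storage and restrains lipolysis. Impaired insulin action in adipose tissue is a known feature of obesity, and much of its regulation acts on protein phosphorylation, which arrays do not measure.

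By their brightest probe, 5 genes near the top of the pathway and at its Rab switch were lower in HFD. They were Irs1 (2.60-fold), Pik3r1 (2.46-fold), Insr (1.69-fold), Tbc1d4 (1.67-fold) and Pdpk1 (1.62-fold). The other tested probes had log2 changes of only -0.11 for Insr and of 0.03 and -0.03 for Pdpk1. Transcripts of 3 genes were higher: the receptor inhibitor Grb14 (1.98-fold), the regulatory subunit Pik3r3 (1.59-fold) and Tbc1d1 (1.58-fold), a relative of Tbc1d4. Each gene was read by its tested probe of highest mean signal, and a change was called at a limma adjusted p under 0.05, adjusted over all 26058 tested probes. The 5 lower genes were 12.8% of the 39 tested, beside 5.61% of all 17625 tested genes called lower, and the 3 higher genes were 7.69%, beside 5.78% of all genes called higher. In either direction 20.5% of the listed genes were called, against 11.4% of all genes. With the mean of a gene's tested probes 2 listed genes were lower and 4 higher, beside 942 and 992 of all 17625 genes. The median log2 change was -0.12 over the 39 genes and 0.02 over all genes.

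The arrays of the 2 diets did not overlap for 30 of the 39 genes (76.9%), beside 68.9% of all tested genes. HFD was the lower diet for 20 of the 39 (51.3%), beside 32.7% of all tested genes, and the higher for 10 (25.6%), beside 36.2%. Of the 80 probes 54 did not overlap (67.5%), beside 67.9% of all tested probes. By probe, 10 of the 80 tested (12.5%) were lower, beside 5.27% of all tested probes, and 4 were higher, beside 5.43%. In either direction 17.5% of the listed probes were called, beside 10.7% of all probes. Of the 10 lower probes 2, 1 of Irs1 and 1 of Rps6kb1, were not well above background on both HFD arrays and entered the test through LFD, where they are high, so the share of lower probes supports nothing by itself. The called probes belonged to 11 genes, since Ptpn1, Grb10 and Rps6kb1 had a called probe that was not their brightest. By role, the called genes were 2 lower of 5 tested among the receptor and adaptors, 2 lower and 1 higher of 10 among the PI3K and Akt kinases, 1 lower and 1 higher of 7 in vesicle traffic, and 1 higher of 8 among the negative regulators. Over all tested genes 5.61% were lower and 5.78% higher, and groups this small do not measure a share well. Among the 9 tested Akt targets and mTOR genes 0 passed in limma. An unadjusted p under 0.05 was seen for 2 of the 9, beside 6151 of all 17625 tested genes.

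**Figure D1:**
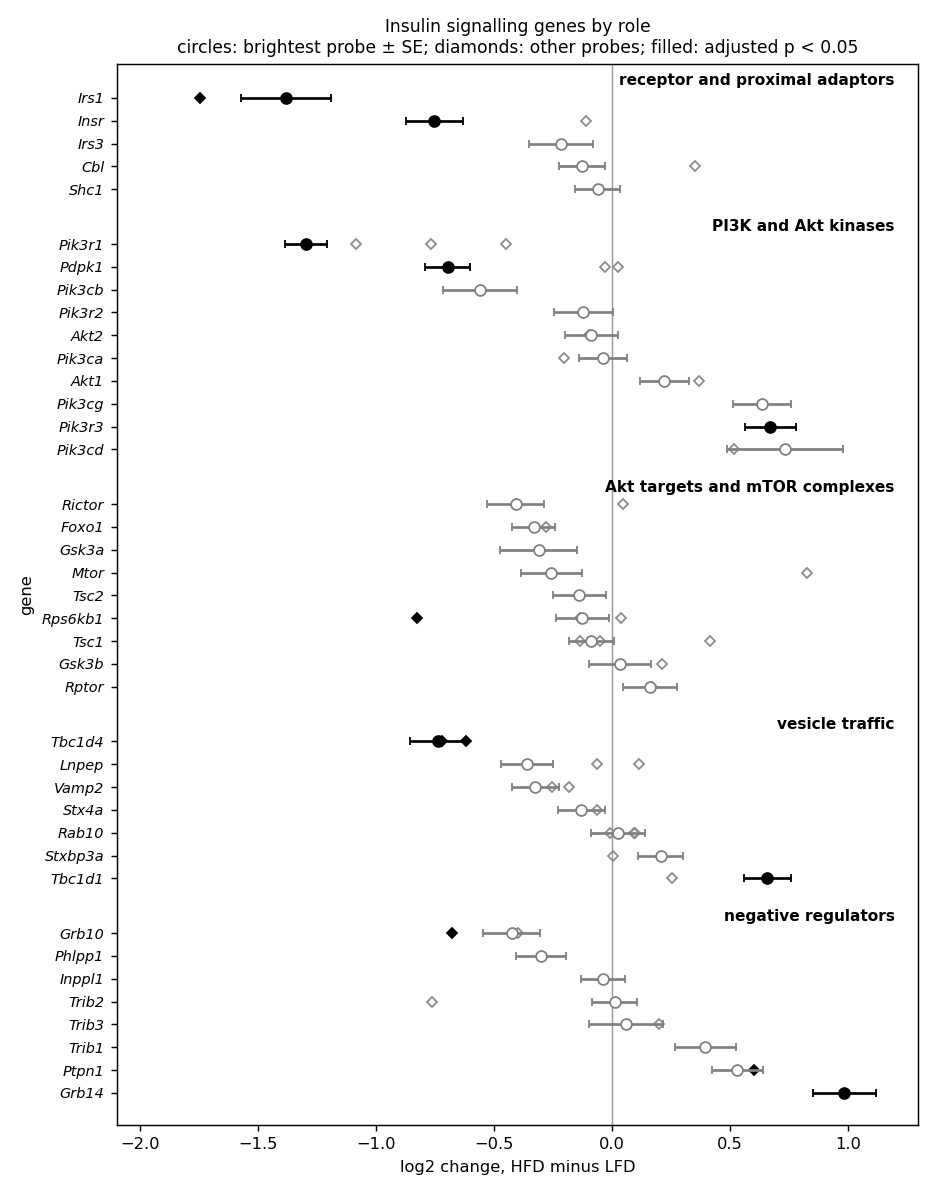
Log2 change (HFD minus LFD, horizontal axis) of the 39 tested genes, grouped by role. Circles with bars are the brightest tested probe ± SE, diamonds are the other tested probes and filled marks have an adjusted p under 0.05. The 5 filled circles to the left of 0 run from -1.38 for Irs1 to -0.70 for Pdpk1, and the 3 to the right from 0.66 for Tbc1d1 to 0.98 for Grb14.

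At the receptor, Insr, the insulin receptor itself, and Irs1, its main docking protein in fat, were lower in HFD. All signals here are log2 values relative to the 75th percentile of their array. The brightest Irs1 probe read 4.16 and 3.68 in LFD and 2.50 and 2.58 in HFD. Both LFD values lay above both HFD values, and the log2 change was -1.38 (SE 0.19, limma adjusted p = 0.0304). A second Irs1 probe, nearer the middle of the transcript, read -2.73 and -2.90 in LFD and -4.20 and -4.92 in HFD. It too was lower (-1.75, SE 0.27, adjusted p = 0.0364), but it stood well above background on only 1 of the 2 HFD arrays, and with normexp background handling its change was -0.50. The 2 probes start at bases 9091 and 5219 of the listed transcript and lie at chromosome 1, positions 82229692 to 82229751 and 82233564 to 82233623 on the minus strand of mouse build mm9. In a fit with 1 array left out, 1 array of a diet stands against 2 of the other and is assumed to vary as they do, with 1 residual degree of freedom, so its p rests on the spread of the other diet. With each array left out in turn the change of the brightest Irs1 probe was -1.62 to -1.14, and its adjusted p passed without LFD replicate 1 (0.0496) and without LFD replicate 2 (0.048) but not without HFD replicate 1 (0.106) or HFD replicate 2 (0.133).

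The brightest Insr probe read 0.19 and 0.22 in LFD and -0.43 and -0.67 in HFD. The diets did not overlap, and the log2 change was -0.75 (SE 0.12, adjusted p = 0.0385). The other Insr probe was well above background in LFD only and differed by only -0.11 (adjusted p = 0.536). The call rested on the brighter probe, at base 8550 of the transcript (mm9 chromosome 8, positions 3151667 to 3151726, minus strand). The mean of both probes gave -0.43 (adjusted p = 0.0708), and with each array left out the brighter probe ranged from -0.87 to -0.64 with adjusted p of 0.0795 to 0.183.

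The other adaptors gave no call. Irs3, a receptor substrate made in rodent fat, had a log2 change of -0.21 (adjusted p = 0.322), Shc1, which links the receptor to Ras, of -0.06 (0.676), and Cbl, an adaptor and ubiquitin ligase, of -0.13 (0.401), with a second Cbl probe at 0.35 (0.176). All 5 tested genes of the group had a change below 0 by their brightest probe, except that Cbl had 0.17 with normexp background handling. Of all tested genes 47.8% had a change below 0.

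**Figure D2:**
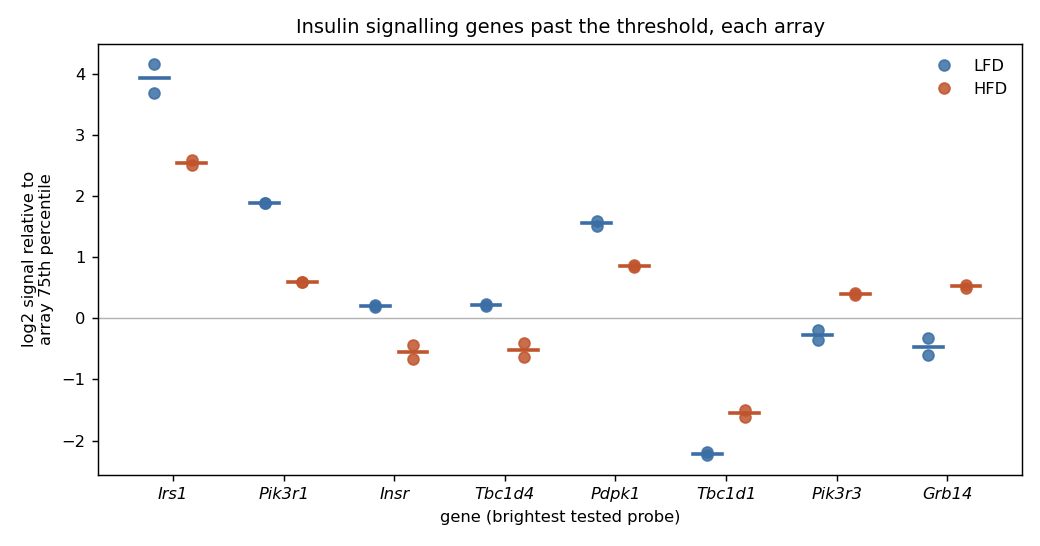
Log2 signal over the 75th percentile of the array (vertical axis) of the 8 called genes, 1 point per array and a line at the mean of the 2 arrays of a diet. The diets do not overlap for any of the 8 genes; the LFD arrays differ most for Irs1 (4.16 and 3.68).

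Among the PI3K subunits, the regulatory subunit Pik3r1, the main partner of the catalytic subunits in fat, fell, and its relative Pik3r3 rose. The brightest Pik3r1 probe read 1.89 on both LFD arrays and 0.59 and 0.60 in HFD. The arrays of a diet nearly coincided, and the log2 change of -1.30 (SE 0.09, adjusted p = 0.0142) had the smallest p of the list. With each array left out the change stayed between -1.30 and -1.29, with an adjusted p of 0.0435 without LFD replicate 1, 0.048 without LFD replicate 2, 0.0667 without HFD replicate 1 and 0.0835 without HFD replicate 2.

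The other 3 Pik3r1 probes were also below 0, at -1.09 (adjusted p = 0.0709), -0.77 (0.104) and -0.45 (0.157), and none passed the test. On all 4 probes both HFD arrays lay below both LFD arrays, while the size differed by probe, and the mean of the 4 probes gave -0.90 (adjusted p = 0.0505). Shown first is the called probe, at base 2501 of the transcript (mm9 chromosome 13, positions 102456208 to 102456267, minus strand). The second, at base 1627, maps across positions 102459406 to 102460448, so it spans a splice junction and reads spliced RNA.
Pik3r1 called probe: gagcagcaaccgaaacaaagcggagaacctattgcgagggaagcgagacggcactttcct
Pik3r1 junction probe: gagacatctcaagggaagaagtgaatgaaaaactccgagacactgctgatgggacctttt

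Pik3r3, which encodes a short regulatory subunit, read -0.36 and -0.19 in LFD and 0.38 and 0.41 in HFD. The diets did not overlap, and the log2 change was 0.67 (SE 0.11, adjusted p = 0.0382). Its other 3 probes were not well above background on any array. Without 1 array the change was 0.59 to 0.76 and the adjusted p 0.0563 to 0.197. The third regulatory gene, Pik3r2, had -0.12 (0.523).

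None of the catalytic subunits passed. Pik3ca, the ubiquitous form, had a log2 change of -0.04 (adjusted p = 0.817) and -0.20 (0.285) on its 2 probes, and Pik3cb, the other broadly expressed form, -0.56 (0.095). Pik3cd and Pik3cg, forms best known from white blood cells, had 0.73 (0.127) and 0.64 (0.0521), and the second Pik3cd probe had 0.52 (0.128). The brightest Pik3cd probe read 1.19 and 0.52 in LFD and 1.58 and 1.60 in HFD. Its LFD arrays lay far apart, and without LFD replicate 1 its change was 1.07 (adjusted p = 0.0496). Pik3cg read -2.87 and -3.07 in LFD and -2.26 and -2.41 in HFD, with no overlap. Of 9 tested macrophage markers 7 were higher in HFD, beside 5.78% of all tested genes. The summed signal of the 9 was 167 to 183 times the array's 75th percentile in LFD and 300.4 to 306 in HFD. The part of these cells in the values of Pik3cd and Pik3cg was not tested.

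Pdpk1, the kinase that phosphorylates Akt in its activation loop, gave a call from 1 of its 3 probes. That probe, at base 527 of the transcript, read 1.59 and 1.51 in LFD and 0.84 and 0.87 in HFD, a log2 change of -0.70 (SE 0.10, adjusted p = 0.0299). The probe at base 1583 read 0.98 and 1.25 in LFD and 1.13 and 1.15 in HFD (0.03, adjusted p = 0.902), and the probe at base 386 read -1.55 and -1.22 in LFD and -1.41 on both HFD arrays (-0.03, adjusted p = 0.903). The diets were apart on the called probe and overlapped on the other probes, and the mean of the 3 gave -0.23 (adjusted p = 0.21). Leaving out 1 array at a time left the called probe at -0.74 to -0.65 with an adjusted p of 0.0572 to 0.165. The 3 sequences are shown because they differ in kind: capitals mark the repeat of the bases A and G with which the called probe begins.
Pdpk1 base 527: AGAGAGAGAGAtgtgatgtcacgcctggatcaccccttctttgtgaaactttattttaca
Pdpk1 base 1583: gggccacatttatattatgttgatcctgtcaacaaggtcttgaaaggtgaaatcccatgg
Pdpk1 base 386: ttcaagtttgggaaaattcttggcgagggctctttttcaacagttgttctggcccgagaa
That repeat runs over 11 bases. A repeat of 2 bases over at least 10 bases occurred in 1 of the 97 listed probes and in 82 of the array's 41174 probes (0.199%). The called probe maps to mm9 chromosome 17, positions 24243816 to 24243875, on the minus strand. Whether the repeat bears on the difference between the probes was not tested.

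The Akt genes themselves gave no call. The brightest probe of Akt1, the form expressed in most tissues, had a log2 change of 0.22 (adjusted p = 0.212) and its other probe 0.37 (0.0961). Akt2, the form most tied to insulin-stimulated glucose uptake, had -0.09 (0.607) and -0.10 (0.562) on its 2 probes, with overlapping diets on both.

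**Figure D3:**
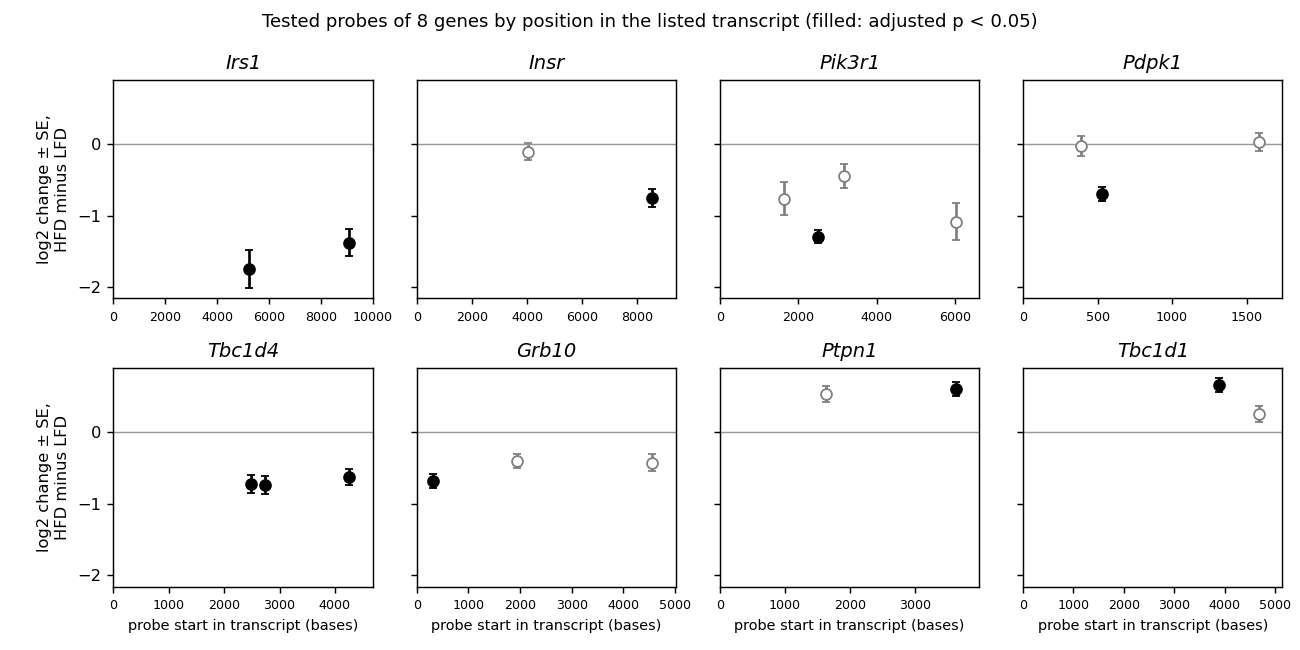
Log2 change ± SE (vertical axis) of each tested probe of 8 genes against its start in the transcript listed for it, in bases (horizontal axis); filled points have an adjusted p under 0.05. The 3 probes of Tbc1d4 lie between -0.74 and -0.62, while those of Pdpk1 lie at -0.70, -0.03 and 0.03.

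No target of Akt or mTOR gene passed by its brightest probe. Foxo1, which drives fasting genes until Akt inhibits it, read 2.83 and 2.78 in LFD and 2.48 and 2.47 in HFD (-0.33, adjusted p = 0.0915), and its second probe had -0.28 (0.122). The 2 Foxo1 probes thus gave like values, with no overlap between diets, short of the threshold. Gsk3a and Gsk3b, kinases that restrain glycogen synthesis, had -0.31 (adjusted p = 0.25) and 0.03 (0.868), with 0.21 (0.228) on the second Gsk3b probe. Mtor, the shared kinase of both complexes, had -0.26 (0.241), but 0.83 (0.107) on a probe of an Ensembl transcript.

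Rptor and Rictor, which define the mTOR complexes 1 and 2, had 0.16 (adjusted p = 0.364) and -0.41 (0.104). Their other tested probes had 0.17 (0.4) for Rptor and 0.05 (0.792) and -0.41 (0.521) for Rictor. Tsc1 and Tsc2, which hold mTOR complex 1 in check, had -0.09 (0.544) and -0.14 (0.433), and the other Tsc1 probes had -0.13 (0.353), -0.05 (0.904) and 0.42 (0.0887). Rps6kb1, the ribosomal S6 kinase that mTOR activates, had -0.13 (0.464), with -0.14 (0.435) and 0.04 (0.876) on its other RefSeq probes. A probe of a cDNA clone of Rps6kb1 passed at -0.83 (adjusted p = 0.0302), but it was well above background in LFD only and had a change of 0.03 with normexp background handling.

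In vesicle traffic, the 2 Rab GTPase activating proteins moved in opposite directions. Tbc1d4, the Akt substrate that holds transporter vesicles back until it is phosphorylated, was lower on all 3 of its tested probes. The brightest probe read 0.23 and 0.19 in LFD and -0.64 and -0.41 in HFD (log2 change -0.74, SE 0.12, adjusted p = 0.0387). The second read 0.21 and 0.20 in LFD and -0.65 and -0.39 in HFD (-0.72, adjusted p = 0.0431), and the third -1.17 and -1.25 in LFD and -1.92 and -1.74 in HFD (-0.62, adjusted p = 0.0455). HFD replicate 1 was the lower of the HFD arrays on each probe, and no probe had overlapping diets. With normexp background handling the 3 changes were -0.66, -0.63 and -0.41, and the third did not pass (limma adjusted p = 0.0647). The 3 sequences are shown because they are separate stretches of 1 transcript that gave nearly the same change in the main fit.
Tbc1d4 base 2742: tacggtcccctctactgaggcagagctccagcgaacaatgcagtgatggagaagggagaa
Tbc1d4 base 2491: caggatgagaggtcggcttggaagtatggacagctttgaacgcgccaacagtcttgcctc
Tbc1d4 base 4260: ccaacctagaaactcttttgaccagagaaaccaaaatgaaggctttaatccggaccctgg
The first of these spans a splice junction (mm9 chromosome 14, positions 101864965 to 101876239, minus strand). The remaining Tbc1d4 probe, for a cDNA clone, was not well above background. The mean of the 3 tested probes gave -0.69 (adjusted p = 0.0427). With each array left out the brightest probe had -0.85 to -0.63 and an adjusted p of 0.0756 to 0.149.

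Tbc1d1, the close relative of Tbc1d4 that is best known from muscle, read -2.19 and -2.24 in LFD and -1.50 and -1.61 in HFD. The diets did not overlap, and the change was 0.66 (SE 0.10, adjusted p = 0.0344). Its second probe had 0.25 (0.2), with both HFD arrays above both LFD arrays, and the mean of the pair had 0.46 (0.0674). With each array left out the change was 0.60 to 0.71 and the adjusted p 0.0689 to 0.162. Of 8 skeletal muscle markers tested 0 passed in limma and 4 had an unadjusted p under 0.05, beside 6151 of all 17625 tested genes. The log2 change was above 0 for 7 of the 8 and below 0 for 1, with a median of 0.41, beside 0.02 over all genes. The 1 below 0, Actn3, had the smallest adjusted p of the 8 (-0.55, limma adjusted p = 0.0562). The summed signal of the 8 markers was 2.72 and 3.98 in LFD and 4.86 and 3.82 in HFD. The groups overlapped in that sum. Its part in the Tbc1d1 value was not tested.

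The genes of vesicle docking and fusion gave no call. Rab10, the GTPase that Tbc1d4 acts on in adipocytes, had a log2 change of 0.03 (adjusted p = 0.886) and -0.01 to 0.10 on its other 3 probes, of which 1 pair shares 40 bases. Vamp2, the vesicle SNARE, had -0.32 (0.111), with -0.25 and -0.18 on a pair of probes that share 50 bases. Stx4a, the SNARE of the cell surface, had -0.13 (0.403) and -0.06 (0.733) on its 2 probes. Stxbp3a, which binds it, had 0.21 (0.208) and 0.0031 (0.987). Lnpep, the aminopeptidase that travels in the transporter vesicles, had -0.36 (0.107), and -0.07 (0.683) and 0.11 (0.696) on its other probes.

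Of the negative regulators, Grb14 passed by its brightest probe and Ptpn1 and Grb10 by another. Grb14, an adaptor that blocks the receptor's kinase, read -0.61 and -0.32 in LFD and 0.55 and 0.49 in HFD. Both HFD arrays lay above both LFD arrays, and the log2 change was 0.98 (SE 0.13, adjusted p = 0.0297). It came from the only tested probe of this gene, at base 1723 (mm9 chromosome 2, positions 64750720 to 64750779, minus strand). Left out 1 at a time, the arrays gave 0.84 to 1.13, with an adjusted p of 0.06 without LFD replicate 1, 0.048 without LFD replicate 2, 0.116 without HFD replicate 1 and 0.143 without HFD replicate 2.

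Grb10, a relative of Grb14 with the same known action, had the opposite sign. Its 3 probes had changes of -0.43 (adjusted p = 0.0955) for the brightest, -0.68 (0.0327) at base 320 and -0.40 (0.073) at base 1951. Both HFD arrays were below both LFD arrays on each. The probe at base 1951 was well above background on only 1 HFD array, and with normexp background handling its change was -0.10. Ptpn1, the phosphatase that removes phosphate from the receptor, had 0.53 (adjusted p = 0.0564) on its brightest probe, which read 3.33 and 3.24 in LFD and 3.74 and 3.90 in HFD. Its probe at base 3622 read 0.78 and 0.77 in LFD and 1.31 and 1.44 in HFD and passed at 0.60 (0.04), as did the mean of the pair at 0.57 (0.0466). The call of the second Grb10 probe was lost without any 1 of the arrays (adjusted p of 0.0630 to 0.156), and so was that of the second Ptpn1 probe (0.0754 to 0.219).

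The other negative regulators gave no call. Trib1, Trib2 and Trib3, pseudokinases of which Trib3 binds Akt, had log2 changes of 0.40 (adjusted p = 0.12), 0.01 (0.937) and 0.06 (0.807). The dimmer Trib2 probe had -0.76 (0.381), with 1 of 2 HFD arrays not well above background, and the dimmer Trib3 probe 0.20 (0.221). Inppl1, a lipid phosphatase that acts on the product of PI3K, had -0.04 (0.793), and Phlpp1, a phosphatase of Akt, -0.30 (0.136).

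Of the 39 tested genes 27 had more than 1 tested probe. All probes of a gene had changes of 1 sign in 18 of them and of both signs in 9. Over the whole array, 1884 of the 6034 genes with more than 1 tested probe had changes of both signs. Irs1 and Tbc1d4 had more than 1 called probe, and all of these were lower. Splice junctions were spanned by 16 of the 97 probes. Of the listed probes on RefSeq transcripts 72 of 78 were tested, with 9 lower and 4 higher. Of all tested probes, on any transcript, 5.27% were lower and 5.43% higher. The 9 include the dimmer Irs1 probe, which was well above background on only 1 HFD array. Of the listed probes on clones or other transcripts 8 of 19 were tested, with 1 lower, the dim Rps6kb1 probe.

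**Figure D4:**
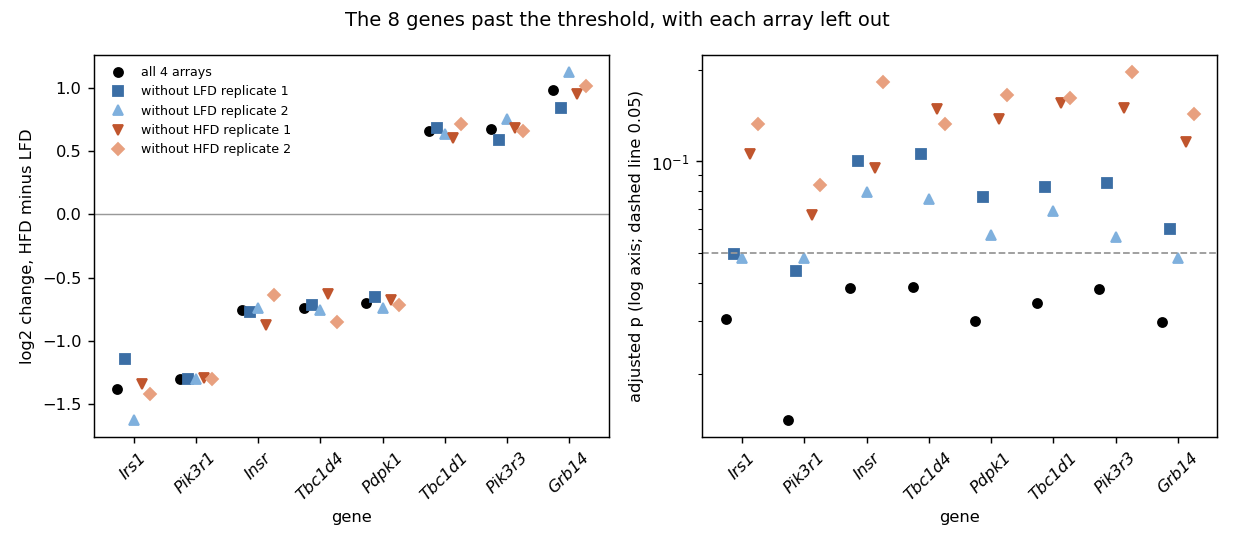
The 8 called genes in the fit of all 4 arrays and with each array left out: log2 change (HFD minus LFD, left) and limma adjusted p on a log axis (right, dashed line at 0.05). With an array left out the p passes for Irs1 and Pik3r1 in 2 of the 4 fits and for Grb14 in 1; signs could not change, because the diets do not overlap for these genes.

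Few of the 8 called genes kept their call with 1 array left out; their signs could not change, since their diets do not overlap. Without either LFD array fewer listed genes passed, and fewer of all genes passed too. No listed gene passed without HFD replicate 1 or without HFD replicate 2. The counts over all genes fell alike, from 988 lower and 1018 higher to 9 lower and 10 higher without HFD replicate 1 and to 9 and 9 without HFD replicate 2.

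Genes of the pathway outside the list were taken from a second list of 97, of which 94 were tested. Of these 4 were lower and 4 higher, which is 8.51% called beside 11.4% of all genes, and their median log2 change was 0.03. The lower genes were Foxo6, a FOXO factor that insulin restrains (-1.79, adjusted p = 0.0147), Bad, a cell death protein that Akt inactivates (-0.99, 0.0241), Gys1, the glycogen synthase outside liver (-0.78, 0.0398), and Prkcz, an atypical protein kinase C (-0.53, 0.0472). The Bad probe was for a cDNA clone, and over 12 other settings that kept all 4 arrays the change of Bad was -1.11 to -0.48. The higher genes were Dok1, a docking protein of tyrosine kinases (1.25, 0.0154), Pik3r5, the regulatory partner of Pik3cg (2.02, 0.0205), Myo1c, the motor that brings transporter vesicles to the membrane (0.62, 0.0362), and Nras, a Ras GTPase (0.54, 0.0411). With 1 array left out at a time, Foxo6, Dok1 and Pik3r5 passed without either LFD array and not without either HFD array, and the other 5 genes passed in none of the 4 fits (adjusted p of at least 0.054). Pik3r5 and Dok1 are best known from blood cells, and the macrophage sum given above moved with them; its part in their values was not tested.

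Slc2a4, the insulin-responsive glucose transporter at the end of the pathway, read 5.08 and 5.80 in LFD and 4.09 and 4.23 in HFD. Both HFD arrays were below both LFD arrays, but the LFD arrays lay apart, and the log2 change of -1.28 (SE 0.27) missed the threshold (adjusted p = 0.0581). Without LFD replicate 1 it was -1.65 and passed (0.0431), without LFD replicate 2 it was -0.92 (0.056), without HFD replicate 1 -1.21 (0.177) and without HFD replicate 2 -1.35 (0.194). It passed 0.05 in 5 of 12 other settings: normexp (0.0196), quantile (0.0464) and median scaling (0.0429), probes well above background on all 4 arrays (0.0350), and trend and robust options (0.0447). Socs3, an inhibitor of insulin receptor substrates, had 0.30 (0.288).

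The labelled tissue held its defining transcripts: all 10 adipocyte markers, among them Adipoq and Plin1, were well above background in both diets. Their summed signal was 1375 and 1495 times the 75th percentile in LFD and 1291 and 1394 in HFD, which overlap, and 1 marker (Retn) was lower. Markers of other cell types also differed by diet, beside the 7 macrophage markers. Over all tested genes 5.61% were called lower and 5.78% higher. All 6 mesothelial and all 5 tested epithelial markers were lower in HFD, with sums of 22.9 and 24.4 against 9.78 and 7.83, and of 17.9 and 18.5 against 3.90 and 3.01. Of 5 brown fat markers 4 were lower, with sums of 106.7 and 42.6 in LFD and 6.94 and 9.38 in HFD. Preadipocyte and fibroblast markers were lower for 3 of 8, while by log2 change 5 of the 8 were below 0 and 3 above. Their sums were 176.8 and 142.2 in LFD and 173.7 and 167.4 in HFD, which overlap. Of 7 lymphocyte and 6 endothelial markers 0 passed in either direction in limma, with 1 (above 0) and 2 (below 0) at an unadjusted p under 0.05. Of all 17625 tested genes 6151 had such a p. The part of these cells in the changes of Irs1, Pik3r1, Insr, Tbc1d4, Pdpk1, Grb14 and Pik3r3 was not tested.

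In promoters of the listed genes the searched motifs were rare, as they were over all promoters. RefSeq promoters of build GRCm38.p6, from 250 bases before to 50 bases after a start site, were matched for 37 of the 40 genes (52 promoters) and searched on both strands for 3 motifs tied to insulin, sterol or fasting signals. The FOXO element GTAAACA occurred in 2 of the 52 member promoters (Akt1 and Pik3cg), beside 1199 of all 32851 promoters (3.65%). The E-box CACGTG occurred in 1 of the 52 (Irs1), beside 2349 of all promoters (7.15%). The cAMP response element TGACGTCA occurred in 1 of the 52 (Stxbp3a), beside 588 of all promoters (1.79%). Counts this small cannot set the listed genes apart from all promoters. The stretch of the Irs1 promoter around its match is shown with the E-box in capitals. It lies on the minus strand at chr1:82291502-82291601 of GRCm38.p6, from 162 to 63 bases before the start site.
Irs1 promoter: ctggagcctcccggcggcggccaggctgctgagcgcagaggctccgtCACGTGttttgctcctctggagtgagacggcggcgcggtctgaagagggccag
A match of letters is no evidence of binding, and binding was not measured.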

How the data were processed

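White adipose tissue RNA of 2 samples per diet was measured on 4 one-colour arrays, which shared 1 slide and 1 scan, per the file headers. The authors deposited linear spot intensities from Feature Extraction (11.5.1.1 per the submitters' processing notes, 11.0.1.1 per the file headers), background-subtracted within each array and not scaled between arrays. They also deposited a value table, which dividing by the scanner signals showed to be the ratio of each processed signal to the array's 75th percentile, linear and uncentred, with column medians of 0.117, 0.127, 0.130 and 0.131 and higher values for brighter spots. Each array held 45018 spots, 43379 of them not controls.

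Processed signals were taken to log2, scaled by subtracting each array's 75th percentile, and averaged over the spots of a probe, without outlier spots (60 to 115 per array). No spot was saturated. The diets were compared by a two-sided test of lmFit and eBayes (limma 3.58.1 in R 4.3.3, files read with data.table version 1.17.8), with 2 residual and 2.24 prior degrees of freedom and Benjamini-Hochberg adjustment over 26058 probes. The number of arrays limits the precision. Probes well above background numbered 21314 to 27940 per array, and log2 signals correlated across probes with r of 0.989 and 0.992 within diets and 0.965 to 0.971 between them. Deviations of arrays with the same replicate number did not correlate (r = -0.0046). This shows no effect shared by number, but cannot tell whether samples were collected or processed in pairs.

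The members, the second pathway list and the marker lists were chosen with earlier results of these data known. All members with a probe were named, with every tested probe; of the second list, the called genes and Slc2a4 and Socs3. Other genes under this rule are not reported here. Probe coordinates are those of the files (mm9); no annotation of that build was used. Alternatives were normexp, quantile and median scaling, the deposited table, other filters, flagged spots kept, updated symbols, the mean of a gene's probes, trend and robust options, a replicate block, a threshold of 0.10 and each array left out.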

Additional observations from a re-analysis of the deposited data

How the results depend on the processing

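The counts of listed genes were 5 lower and 3 higher, and those of the second list 4 and 4. They were the same with the deposited value table, flagged spots kept and updated symbols. Quantile scaling gave 5 and 3, and 6 and 4, beside 1226 lower and 970 higher over all genes. With median scaling they were 5 and 3, and 7 and 3, while the split over all genes moved from 988 lower and 1018 higher to 1325 and 851. Normexp gave 7 and 5, and 9 and 12. Testing only probes well above background on all 4 arrays gave 5 and 5, and 9 and 11. Trend and robust options gave 8 and 5, and 9 and 13, and an adjusted p under 0.10 gave 8 and 5, and 10 and 13. The counts over all genes rose as well. They were 1234 lower and 1616 higher with normexp, and 1301 and 1598 of 14722 tested genes with the filter on all 4 arrays. With trend and robust options they were 1794 and 1824, and at an adjusted p under 0.10 they were 2174 and 2256. All 8 called genes kept their call in these 9 settings. With the mean of a gene's probes the listed genes had 2 lower and 4 higher, and the second list 4 and 4. Over all genes that setting gave 942 and 992. With no filter on dim probes limma called 0 in each count, with 12 of 40 and 23 genes at an unadjusted p under 0.05, and 0 of all 27376 genes were called. The share of all genes at that unadjusted p was not counted in this setting. Leaving out 1 array lowered the counts of both lists and those over all genes.

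The replicate block gave 1 lower (Pik3r1) and 0 higher listed genes, with 17 at an unadjusted p under 0.05. The share of all genes at that unadjusted p was not counted with the block. In the second list it gave 1 lower and 2 higher, and over all genes 205 and 220. The arrays share a number, no pairing of samples is stated, and the block leaves 1 residual degree of freedom fewer. With 1 slide in all, no slide block could be fitted.

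Signs changed in 20 of 815 pairs of a gene and a setting, in 10 genes, none of them called in both settings; the cause was not tested. With normexp Cbl had 0.17, Pik3r2 0.0087 and Rab10 -0.043. Rab10 had -0.062 with quantile scaling and -0.061 with median scaling, where Gsk3b had -0.053, Trib2 -0.076 and Trib3 -0.028. The mean of probes gave 0.11 for Cbl, 0.29 for Mtor, -0.38 for Trib2 and 0.036 for Tsc1. With 1 array left out the ranges were -0.078 to 0.13 for Rab10, -0.18 to 0.0079 for Akt2, -0.090 to 0.015 for Pik3ca, -0.11 to 0.23 for Trib3, -0.10 to 0.17 for Gsk3b and -0.032 to 0.057 for Trib2. The median of the listed genes lay between -0.21 (median scaling) and -0.067 (without LFD replicate 2).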
